A study of Mus musculus with 13 samples.

Results

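Col7a1, the gene for the single chain of collagen VII, was followed in all 13 libraries of cultured dermal fibroblasts from newborn mice. It was picked by name, with its levels and genotype differences in these same libraries already known, and it is 1 of 25655 genes in the tables. Its levels and differences are therefore given as a description, with no p value. Its chains wind into a homotrimer, which is secreted, trimmed at one end, paired tail to tail and bundled into anchoring fibrils. These fibrils loop from the lamina densa of the epidermal basement membrane into the papillary dermis and hold the epidermis down, and recessive or dominant loss of collagen VII causes dystrophic epidermolysis bullosa. Keratinocytes and dermal fibroblasts both make it, and in cultured human skin cells TGF-beta raises its transcription.

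The study asked whether a fibrillin-1 mutation changes matrix gene expression in fibroblasts themselves. Fibrillin-1, encoded by Fbn1, builds the microfibrils of the dermis and binds the large latent complex of TGF-beta. RNA-seq was done on untreated primary cultures from the skin of newborn mice, each from 1 mouse, in 2 sets. Set 1 held 4 WT cultures (W1 to W4) and 4 cultures homozygous for Fbn1 G234D (M1 to M4), and set 2 held 2 WT (W5, W6) and 3 G234D (M5 to M7). The labels name no treatment, passage number or sex, so a difference between groups compares cultures as grown. The animal numbers in the titles divide set 1 into 4 earlier animals with lower numbers (W1, W2, M1, M2) and 4 later ones with higher numbers (W3, W4, M3, M4), and the number of W1 lies well below the rest. Values are TPM (transcripts scaled to a fixed library sum), each gene's share of a library after division by transcript length, so levels of different genes can be set side by side. Each library summed to 1000000, read totals are not in the tables, and the sequencing depth is unknown, so no counting interval can be given. The number of genes at 1 TPM or more ran from 11741 to 12042 per library.

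Fbn1 itself averaged 491 ± 42.8 TPM in set 1 WT, 542 ± 50.2 in set 1 G234D, 405 ± 8.03 in set 2 WT and 452 ± 32.2 in set 2 G234D (SD; n = 4, 4, 2 and 3). The allele changes 1 residue, so the level of Fbn1 does not check the genotype labels. The fibroblast label held up: the 18 fibroblast markers (Col1a1, Dcn, Pdgfra and others) summed to between 27500 and 39840 TPM in every library. Col1a1 alone held 9405 to 14550 TPM.

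On the mm10 build Col7a1 (ENSMUSG00000025650) lies on chromosome 9 from 108953586 to 108984875, on the forward strand. GENCODE lists 8 transcripts. The one with the most exons has 119 of them and 9250 exonic bases, in a gene span of 31290 bases. In human cells collagen VII transcription has been mapped to Sp and AP-1 type sites. The 250 bases before the mouse start are shown, and whether the human sites fall within such a window was not checked. They are taken from RefSeq, build GRCm38.p6, chr9:108953336-108953585, forward strand. Capitals mark CGTCA, which is TGACG on the reverse strand and resembles part of a cyclic AMP response element, and GGGCGG, the GC box read by Sp factors.
Col7a1 upstream: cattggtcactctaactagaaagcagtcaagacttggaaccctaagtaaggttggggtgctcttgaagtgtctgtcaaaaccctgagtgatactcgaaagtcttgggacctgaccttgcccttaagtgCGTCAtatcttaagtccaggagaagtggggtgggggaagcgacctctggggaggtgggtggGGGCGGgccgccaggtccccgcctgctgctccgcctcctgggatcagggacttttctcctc
The GC box begins 61 bases before the start. A GC box on either strand was present in 32.7% of all 32851 promoters of that length. The G-rich CACCC-type box GGGTGGGG occurred at 95 and 67 bases before the start, the nearer copy overlapping the GC box, and was present in 9.05% of promoters. TGACG lay 122 bases before the start (17.8% of promoters) and CAGAC, a short Smad-binding motif, 181 bases before it (42.2%), both on the reverse strand. No match was found on either strand to the AP-1 motif TGANTCA (6.75% of promoters), to TGACGT (6.47%), to the Smad palindrome GTCTAGAC (0.167%) or to TATAAA (12.4%). GC content was 56.4%, against a median of 52.4%. These are matches of letters in 1 window and say nothing about which factors bind, or about sites farther upstream.

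Col7a1 was a moderately abundant transcript, with a mean of 61.6 TPM over the 13 cultures and a rank between 1938 and 3433 among all genes of a library. In set 1 the WT cultures held 79.8 (W1), 85.9 (W2), 75.9 (W3) and 68.65 TPM (W4). The G234D cultures of set 1 held 52.3 (M1), 56.2 (M2), 52.45 (M3) and 46.5 TPM (M4). The groups did not overlap: the lowest WT culture stood 12.5 TPM above the highest G234D culture. In set 2 the order was the other way round, with 52.9 (W5) and 51.3 TPM (W6) in WT and 61.3 (M5), 54.1 (M6) and 63.8 TPM (M7) in G234D. All 3 G234D cultures lay above both WT cultures, but the gap between the groups was only 1.2 TPM, set by M6.

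**Figure D1:**
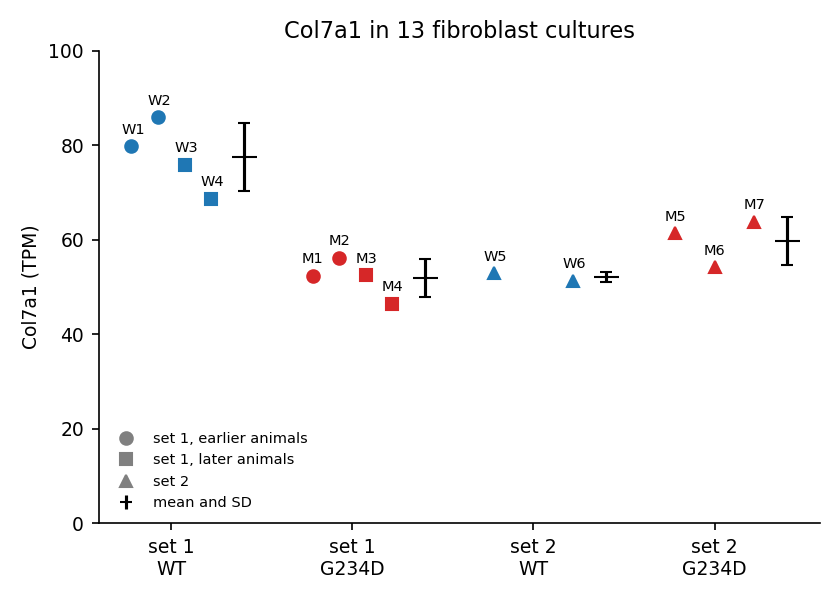
Col7a1 level in TPM (vertical axis, from 0) in each of 13 cultures, by set and genotype; circles are the earlier animals of set 1, squares the later ones and triangles set 2, and bars give the mean and SD. The 4 WT cultures of set 1 stand above all others, between 68.65 and 85.9 TPM, and the other 9 lie between 46.5 and 63.8.

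By group, Col7a1 averaged 77.6 ± 7.24 TPM in set 1 WT, 59.75 ± 5.02 in set 2 G234D, 52.1 ± 1.13 in set 2 WT and 51.9 ± 4.01 in set 1 G234D (SD; n = 4, 3, 2 and 4). The lower 2 of these means were within an SD of each other. The WT cultures of set 2 thus sat at the level of the G234D cultures of set 1, not of the WT cultures of set 1. The labels do not say whether the sets were prepared together. A difference between sets therefore cannot be told apart from how each was grown and sequenced, and none was tested.

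The set 1 G234D mean was 66.9% of the WT mean, a log2 difference of -0.57 on the log2(TPM + 1) scale (limma SE 0.0782). That scale understates the change of genes with few TPM, which matters little at this level. The difference was -0.60 in the earlier animals (means 82.9 TPM in WT, 54.3 in G234D, n = 2 each) and -0.54 in the later ones (72.25 and 49.5, n = 2 each). Earlier and later animals thus carried it at similar size, in 4 of 4 G234D cultures. In set 2 the G234D mean was 115% of WT, a log2 difference of 0.19 (SE 0.0753), in 3 of 3 G234D cultures. Fitted to all 13 cultures together, with a term for the set, the 2 directions partly cancelled to -0.28 (SE 0.119). The set 2 difference exceeded that of set 1 by 0.76 (SE 0.123). Later animals of set 1 averaged 60.9 TPM and earlier ones 68.6, a log2 difference of -0.16 (SE 0.0566) with the genotype as a covariate.

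In bulk RNA, fewer cells of a type and less RNA per cell cannot be told apart, so the markers of other cells are set beside these differences. Keratinocytes, the other main source of collagen VII, left little RNA. Of 25 keratinocyte genes 15 stayed under 1 TPM in every library, and the mean was 0.572 TPM for Krt5, 0.141 for Trp63 and 0.0704 for Cdh1, with Flg at 0 in all 13. The summed keratinocyte list ran from 16.6 to 26.6 TPM in set 1 WT and from 11.1 to 26.7 in set 1 G234D, so the groups overlapped. In set 2 it ran from 18.1 to 23.0 in WT and from 23.5 to 28.9 in G234D. It was thus higher in G234D without overlap there, as Col7a1, the muscle and macrophage lists and 16.6% of all genes were. By gene, 6 of the keratinocyte list were tested over both sets and limma called none by genotype. In set 1 all 4 with a fitted difference were negative, with a median of -0.28, and 1 was lower without overlap. In set 2, 3 were positive and 3 negative, with a median of 0.20. Only 1 gene of the keratinocyte list, Sfn, had a mean of 5 TPM or more. The part of keratinocyte RNA in the Col7a1 differences was not tested.

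Glial, muscle and macrophage transcripts were, within set 1, highest in M1 and M2. By genotype in set 1 limma called no member of these lists (7 Schwann, 2 muscle and 0 macrophage genes had an unadjusted p under 0.05). The summed Schwann cell and melanocyte list was 46.6 to 58.7 TPM in set 1 WT against 194 in M1, 193 in M2, 86.2 in M3 and 68.4 in M4. The skeletal muscle list spanned 140 to 193 TPM in set 1 WT and 79.0 to 523 in set 1 G234D, and the macrophage list 36.1 to 99.7 and 48.0 to 226, so both overlapped. Without M1 and M2 the set 1 difference of Col7a1 was -0.64, as large as with them. In set 2 these 3 lists summed to 45.6 to 57.0 TPM (Schwann), 117 to 125 (muscle) and 109 to 111 (macrophage) in WT, and to 48.4 to 65.0, 129 to 178 and 122 to 172 in G234D. The muscle and macrophage sums were thus higher in G234D without overlap in set 2, and the Schwann sums overlapped. The endothelial list overlapped in set 1 (76.8 to 82.1 TPM in WT, 69.2 to 82.6 in G234D). So did the fibroblast marker sum (31300 to 34470 TPM in WT, 27500 to 34570 in G234D). Of its 18 genes limma called none by genotype. In set 1, 13 were negative and 5 positive, with a median of -0.11, beside 5958 and 5888 of all genes. In set 2, 10 were negative and 8 positive, with a median of -0.01. The part of this lean in the Col7a1 difference was not tested. Y-linked transcripts were present in W1, W3, M1, M2 and M3 and in no culture of set 2. Col7a1 differed between genotypes by -0.53 among the 5 set 1 libraries with them and by -0.71 among the 3 without.

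**Figure D2:**
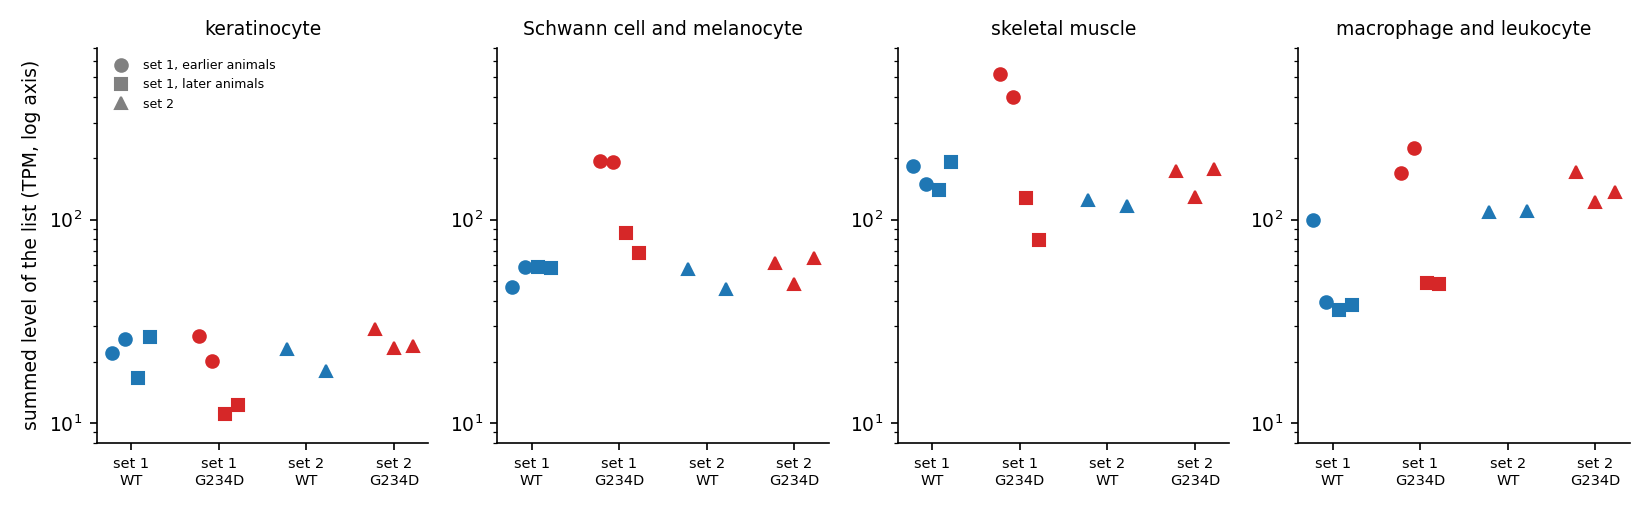
Summed TPM of 4 marker lists (log axis) in each culture by set and genotype, with WT in blue and G234D in red; circles are earlier animals and squares later animals of set 1, and triangles are set 2. M1 and M2 stand above the other cultures in Schwann and muscle lists, at 194 and 193 TPM for the Schwann list, whereas the keratinocyte list stays between 11.1 and 28.9 TPM throughout.

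The background of these contrasts was sparse at the level of calls. The limma fit called 0 of 11942 genes (0.0%) for G234D over both sets at a Benjamini-Hochberg adjusted p under 0.05, with 769 genes at an unadjusted p under 0.05. In set 1 it called 0 of 11905 (0.0%; 721 unadjusted). In set 2 it called 1 of 12060 genes (0.00829%; 781 unadjusted), the predicted gene Gm45837, which was higher in G234D. In set 1 Gm45837 ran from 0 to 6.64 TPM in WT and from 0.026 to 4.18 in G234D, with a log2 difference of -0.07. The set by genotype term called 0 of 11942 (0.0%; 691 unadjusted). No other tool was run. With animal group or replicate number as a block in set 1, limma called exactly 1 gene, and it was Col7a1. Since Col7a1 was chosen with this contrast known, that call supports nothing by itself.

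Among 9911 genes with a mean of at least 5 TPM, 25 including Col7a1 had a set 1 difference as low or lower, and 525 had a set 2 difference as high or higher. Groups failed to overlap in either direction for 497 of 11942 genes in set 1 (4.16%) and 2817 in set 2 (23.6%). They failed to overlap with G234D lower for 262 of 11942 genes in set 1 (2.19%) and with G234D higher for 1987 in set 2 (16.6%). Col7a1 was 1 of 39 genes (0.327%) that did both. The reverse order, higher in set 1 and lower in set 2, was met by 21 genes (0.176%). Without overlap in both sets, 44 genes were higher each time (0.368%) and 27 lower each time (0.226%). A turned order like that of Col7a1 was thus about as common as the same order in both sets. The 39 were led, by size in set 1, by Crabp1 (log2 differences of -0.64 in set 1 and 0.24 in set 2), which encodes a cytosolic retinoic acid binding protein, then by Col7a1 and by the Wnt ligand gene Wnt9a (-0.46 and 0.22). These pairs share no control samples between the sets. Wnt9a is named here because of its place among the 39, after its values were seen.

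Among collagens, Col7a1 was a middling gene. The tables hold 44 collagen genes and 28 were tested over both sets, of which Col7a1 ranked 16th in mean TPM. The 3 highest were the fibrillar chains Col1a1 (12150 TPM), Col1a2 (7858) and Col3a1 (2908). Its nearest neighbours in level were the network collagen Col8a1 (78.4), the fibrillar Col11a1 (70.1), the basement membrane collagens Col18a1 (69.1) and Col4a5 (58.5), and the fibrillar Col5a3 (46.3). Collagen VII therefore stood far below the banded fibril genes and level with minor collagens of basement membranes and fibril cores.

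The other collagens went both ways. In set 1, of 26 with a fitted difference, 16 were negative and 10 positive (5 had an unadjusted p under 0.05), with a median of -0.06. None of the 27 other tested collagens was called over both sets (0.0% of all genes were; 4 of the 27 had an unadjusted p under 0.05), 11 of those differences were positive and 16 negative, and their median was -0.02 against 0.01 for all genes. In set 1 none of the 27 was lower in G234D without overlap, as 2.19% of all genes were, and 3 were higher without overlap (1.97% of all genes). These 3 were Col14a1 (0.84), a collagen on fibril surfaces, Col18a1 (0.78), the source of endostatin, and Col28a1 (0.85). In set 2, 7 of the 27 were higher and 3 lower without overlap, beside 16.6% and 6.95% of all genes. Negative in set 1 and positive in set 2, as in Col7a1, were 8 others. Col25a1, a membrane collagen, showed the pair most like it (-0.53 and 0.41) at levels of 2.28 to 6.58 TPM, and the fibril-surface collagen Col12a1 had -0.18 and 0.26. Both are named after their values were seen.

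**Figure D3:**
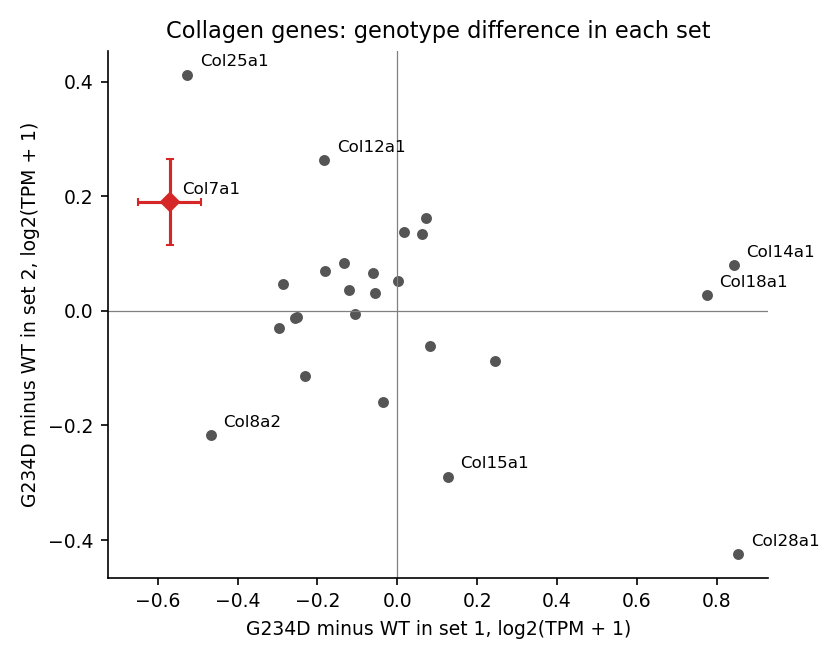
Log2 difference of G234D minus WT in set 1 (horizontal) and set 2 (vertical), both on log2(TPM + 1), for Col7a1 (red diamond, bars 1 SE of limma) and the other collagens tested in both sets (grey points). Col7a1 lies at -0.57 and 0.19, in the upper left with Col25a1, while Col14a1, Col18a1 and Col28a1 lie at the right edge between 0.78 and 0.85.

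The proteins that meet collagen VII in the dermal-epidermal junction divide into those of fibroblasts and those of keratinocytes. The keratinocyte partners were almost silent here: Col17a1, the hemidesmosome collagen, averaged 0.273 TPM, and Lama3 and Lamb3, chains of the laminin 332 that collagen VII binds, averaged 0.0364 and 0.0981 TPM. Of 26 junction genes 17 were tested over both sets and limma called none by genotype (1 had an unadjusted p under 0.05). Their differences were positive in 14 and negative in 3, with a median of 0.08 against 0.01 for all genes. Fn1, whose product fibronectin binds collagen VII, had log2 differences of 0.19 in set 1 and 0.22 in set 2 (adjusted p 0.742 over both sets by limma). Nid2, a nidogen that links laminin to collagen IV, had -0.25 and -0.12 (adjusted p 0.847), and Hspg2, encoding perlecan, 0.10 and 0.28 (adjusted p 0.885). None of the 17 tested junction genes had G234D lower without overlap in set 1. The untested Lamb3 did, at levels below 0.15 TPM in every culture of that set.

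Calls among the junction genes came with animal group. Between later and earlier animals of set 1 limma called 850 of 11905 genes (7.14%), 332 higher (2.79%) and 518 lower (4.35%) in the later animals. Of the 17 junction genes 5 were called lower in the later animals and 1 was called higher. The collagen IV chains Col4a1 and Col4a2 fell by 0.68 and 0.59 on the log2 scale, the nidogen gene Nid1 by 0.60, the laminin chain Lamb1 by 0.25 and the integrin chain Itgb1 by 0.37, while Frem1, which encodes a junction protein of the Fraser complex, rose by 0.83. The calls depended on single libraries. Without M1 or without M2, the cultures with the most glial and muscle RNA, none of the 17 was called, and 120 and 36 genes were called in all. Without M3 or without M4 there was 1 call among the 17 (349 and 288 in all), without W1 there were 3 (298 in all) and without W3 there were 5 (495 in all). Without W2, 5 were called lower and 1 higher (865 in all), and without W4, 3 lower and 2 higher (756 in all). The differences themselves moved less: the median over the 17 was -0.26 with all libraries, -0.22 without M1 and -0.25 without M2, with 15 of 17 negative each time. It was -0.07 without both M1 and M2, with 10 negative. Col7a1, with -0.16, was not among the called genes.

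The genes that make collagen VII ready for export lay mostly slightly above WT, as did most of all genes. Of 31 genes for prolyl and lysyl hydroxylation, peptidyl-prolyl isomerases, chaperones, export and trimming, 30 were tested and limma called none by genotype (2 had an unadjusted p under 0.05). Differences over both sets were positive in 22 and negative in 8, beside 6756 and 5186 of all 11942 genes. The medians were 0.03 in set 1 and 0.08 in set 2, beside 0.00 and 0.03 for all genes. Fkbp14, an ER-resident prolyl isomerase for procollagen chains, was the member with the smallest p. It held 48.7, 47.9, 46.6 and 45.0 TPM in W1 to W4 and 58.8, 58.2, 55.7 and 51.8 in M1 to M4. It was higher in every G234D culture of both sets without overlap, as 0.368% of all genes were, with log2 differences of 0.25 and 0.09 (adjusted p 0.670 over both sets by limma). Fkbp7, another isomerase of that family, had 0.15 and 0.04 (adjusted p 0.742).

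TGF-beta is the best-known inducer of collagen VII, and its pathway members went in both directions. Of 26 genes for ligands, latency proteins, receptors and Smads, 24 were tested and limma called none by genotype (3 unadjusted), with 12 differences positive and 12 negative. Itgb5, a chain of a latent TGF-beta binding integrin, had -0.13 in set 1 and -0.03 in set 2, Tgfb1 had -0.10 and -0.09, and the latent TGF-beta binding protein gene Ltbp3 had 0.21 and 0.05 (adjusted p 0.742, 0.742 and 0.773 over both sets). Of 30 TGF-beta response genes none was called (2 unadjusted), 16 differences being positive and 14 negative. Pmepa1, a feedback inhibitor of the pathway and the member with the smallest p, was lower in G234D without overlap in both sets, as 0.226% of all genes were. It held 150 to 163 TPM in WT and 142 to 149 in G234D of set 1, and 212 and 231 in WT against 192 to 203 in G234D of set 2. Its log2 differences were -0.12 and -0.16 (adjusted p 0.696). Unlike Col7a1, Pmepa1 had the same sign in both sets.

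Within the pathway Ltbp1, another latent TGF-beta binding protein gene, was the member whose levels went most closely with Col7a1. It is named for that, after its values were seen. Set 1 WT cultures held 69.0, 79.5, 68.8 and 74.5 TPM (W1 to W4) and G234D cultures 59.9, 68.8, 44.8 and 42.4 (M1 to M4). W5 and W6 held 33.6 and 29.7 TPM and M5, M6 and M7 41.0, 41.5 and 47.1. The groups touched in set 1, where M2 matched W3, and did not overlap in set 2. The log2 differences were -0.45 and 0.44, the same signs as in Col7a1 (adjusted p 0.931 over both sets and 0.545 for the set by genotype term, limma).

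Sp and AP-1 factors act on the human collagen VII promoter, and their list here also holds Ets1, Ets2, the NF-kappa-B genes Nfkb1 and Rela, and the kinase genes Mapk8 and Mapk9. All 16 were tested and none was called (0 had an unadjusted p under 0.05), and 10 were positive and 6 negative over both sets. Jund, an AP-1 subunit, had -0.06 and -0.04, and Fos, the immediate early subunit, 0.42 and 0.37 (adjusted p 0.779 and 0.888). Of 15 genes for cytokines and growth factors that act on collagen VII or fibroblast matrix, and for their receptors, 11 were tested and none was called (3 unadjusted). The interleukin 6 family genes Lif (0.33 and 0.38) and Il6 (0.21 and 0.45) were positive in both sets (adjusted p 0.742 each). Of 26 matrix proteases and inhibitors 19 were tested and none was called (1 unadjusted). The inhibitor gene Timp3 had 0.44 and 0.11, and Mmp3, whose product cuts basement membrane proteins, 0.79 and -0.14 (adjusted p 0.765 and 0.904).

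**Figure D4:**
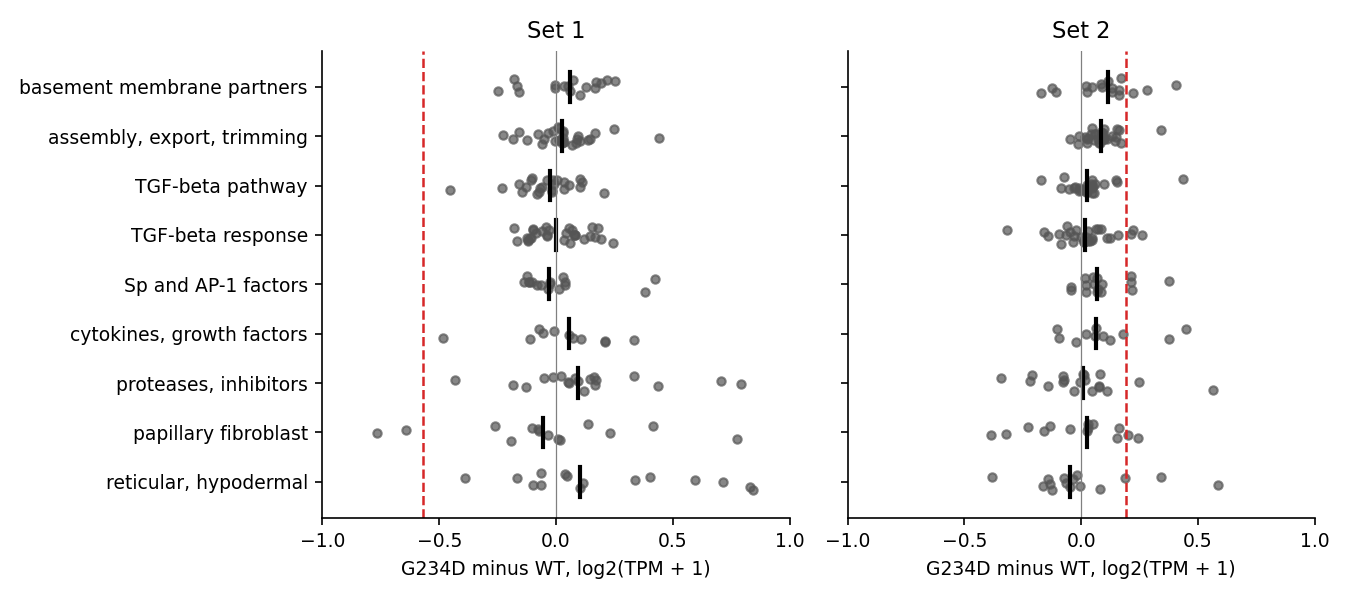
Log2 difference of G234D minus WT, on log2(TPM + 1), for the tested members of 9 gene lists in set 1 (left) and set 2 (right); each point is a gene, black bars are list medians and the red dashed line marks Col7a1. In set 1 the Col7a1 line at -0.57 lies below every list's members except 2 papillary genes, while in set 2 its line at 0.19 falls within the spread of most lists.

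Collagen VII is deposited under the epidermis, so genes of papillary and reticular fibroblasts were examined beside it. Of 20 papillary genes 14 were tested and none was called by genotype (2 unadjusted), with 6 differences positive and 8 negative. They did not move together: in set 1 Crabp1 and Prdm1, which encodes the repressor Blimp1 of papillary progenitors, were lower in G234D, and Col18a1 was higher. Crabp1 held 1386, 1436, 1837 and 2291 TPM in W1 to W4 and 899, 1197, 1131 and 1155 in M1 to M4. In set 2 it held 694 and 785 TPM in WT and 836, 914 and 875 in G234D. As with Col7a1, neither set overlapped and the order turned between sets (adjusted p 0.865 over both sets and 0.695 for the set by genotype term, limma). Prdm1 held 4.18 to 6.81 TPM in set 1 WT, 1.40 in M1, 1.40 in M2, 4.01 in M3 and 4.04 in M4, so its low values lay in the earlier G234D cultures. Its log2 differences were -0.77 in set 1 and 0.05 in set 2 (adjusted p 0.805).

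Of 18 reticular and hypodermal genes 15 were tested and none was called (3 unadjusted), 7 positive and 8 negative over both sets, with medians of 0.10 in set 1 and -0.05 in set 2. Col14a1, a reticular marker, held 8.55 to 9.40 TPM in set 1 WT and 20.6, 19.9, 16.0 and 12.4 in M1 to M4, an order opposite to that of Col7a1. Its log2 differences were 0.84 and 0.08 (adjusted p 0.696 over both sets). Mgp, the matrix Gla protein gene, had 0.83 and -0.07 (adjusted p 0.742). M1 and M2 stood highest in Col14a1 as in the Schwann list, and the part of that RNA in the difference was not tested.

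Which genes followed Col7a1 across cultures was measured by Pearson's r on log2(TPM + 1) over 13 libraries, after each library was centred on the mean of its animal group (earlier, later, set 2), for 9910 genes at a mean of 5 TPM or more. The median size of r was 0.291. Set 1 falls into clusters by genotype in Col7a1, so r there largely carries the genotype difference. The libraries also share a sum of 1000000 TPM and an unknown depth, so r is a description and no p is given. Above 0.9 were 8 genes, above 0.8 there were 89, and 44 lay below -0.8.

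The gene most like Col7a1 was Itgb3, the beta chain of the vitronectin receptor, an RGD-binding integrin (r = 0.974, Spearman's rho 0.956). Itgb3 held 52.9, 55.1, 47.6 and 41.0 TPM in W1 to W4 and 37.0, 42.2, 36.1 and 31.1 in M1 to M4. In set 2 it held 28.7 and 28.0 TPM in WT and 33.1, 31.5 and 34.9 in M5 to M7. It had the order of Col7a1 within each animal group, and within each genotype there. Centred on set and genotype, r was 0.934, but that centring leaves in the difference between earlier and later animals of set 1. Without W2 and W3, the libraries whose centred Col7a1 values lay farthest from the median, r centred on animal groups was 0.962. It was 0.981 in set 1 and 0.945 in set 2 alone (8 and 5 libraries). Its log2 differences were -0.42 in set 1, where M2 overlapped W4, and 0.22 in set 2.

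Next came Sox11 (r = 0.939), a transcription factor of mesenchymal progenitors, Smarca4 (0.937), the ATPase of the BAF chromatin remodelling complex, Etv6 (0.931), an ETS-family repressor, and the mitochondrial ribosomal protein gene Mrps5 (0.925). Tpbg (0.922), a Wnt-modulating membrane protein, Uck2 (0.920), a uridine kinase, Csnk1e (0.90), a casein kinase, Adamts7 (0.896), a matrix protease, and Nfatc1 (0.896), a calcium-regulated transcription factor, made up the 10. Sox11 held 18.1 to 23.0 TPM in set 1 WT and 14.5 to 15.8 in set 1 G234D, and 12.8 to 14.1 and 14.1 to 15.7 in set 2. Centred on set and genotype instead, r was 0.744 for Sox11, 0.833 for Smarca4, 0.849 for Etv6 and 0.919 for Csnk1e. It was 0.128 for Adamts7, and for Tpbg and Uck2 it turned to -0.457 and -0.281. That centring leaves in the later minus earlier difference of set 1, which was -0.16 for Col7a1. The difference was also negative for Sox11 (-0.11), Smarca4 (-0.088), Etv6 (-0.072) and Csnk1e (-0.13), and positive for Adamts7 (0.11), Tpbg (0.13) and Uck2 (0.095). Centring on animal group and genotype together was not run, so r free of both was not measured. Of the 10 genes, 2 were among the first 10 when centred on set and genotype. With no centring the 5 highest were Smarca4 (0.904), Sox11 (0.899), Nfatc1 (0.877), Tent5a (0.867), a cytoplasmic poly(A) polymerase, and Itgb3 (0.863).

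The 5 genes running most against Col7a1 were Pltp (r = -0.940), a phospholipid transfer protein, Itm2b (-0.917), a small membrane protein, Dhx36 (-0.910), a helicase for G-quadruplexes, Ube2b (-0.910), a ubiquitin-conjugating enzyme, and Rer1 (-0.905), a Golgi retrieval receptor. Pltp held 11.6, 9.20, 12.3 and 13.02 TPM in W1 to W4 and 17.3, 13.8, 17.1 and 20.6 in M1 to M4, so the genotypes did not overlap in set 1. In set 2 it held 24.5 and 21.6 TPM in WT and 21.9, 22.6 and 19.0 in G234D, which overlapped. Centred on set and genotype, Pltp kept -0.851, whereas Itm2b and Ube2b turned to 0.404 and 0.0272.

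Among the examined lists with more than 1 gene at 5 TPM or more, the other collagens had the highest median r, 0.515 over 21 genes. They ranged from 0.780 for Col6a3, a chain of microfibrillar collagen VI, to -0.789 for Col18a1. Centred on set and genotype these turned to -0.271 and 0.233. Larger in size but negative was the median of the Schwann cell and melanocyte list (-0.713 over 3 genes) and of the macrophage list (-0.566 over 5). For the muscle list it was -0.482 over 9, and the keratinocyte list held only Sfn (0.642). The dermal fibroblast markers had a median r of 0.424 over 18 genes. It was -0.07 over 14 junction genes and 0.08 over 29 genes of collagen VII assembly and export. Skil, a TGF-beta feedback repressor (0.774), Ltbp1 (0.795) and Crabp1 (0.815) were the highest of their lists. Centred on set and genotype, Crabp1 turned to -0.590, Skil kept 0.742 and Ltbp1 0.558. Fbn1 had r = -0.166.

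**Figure D5:**
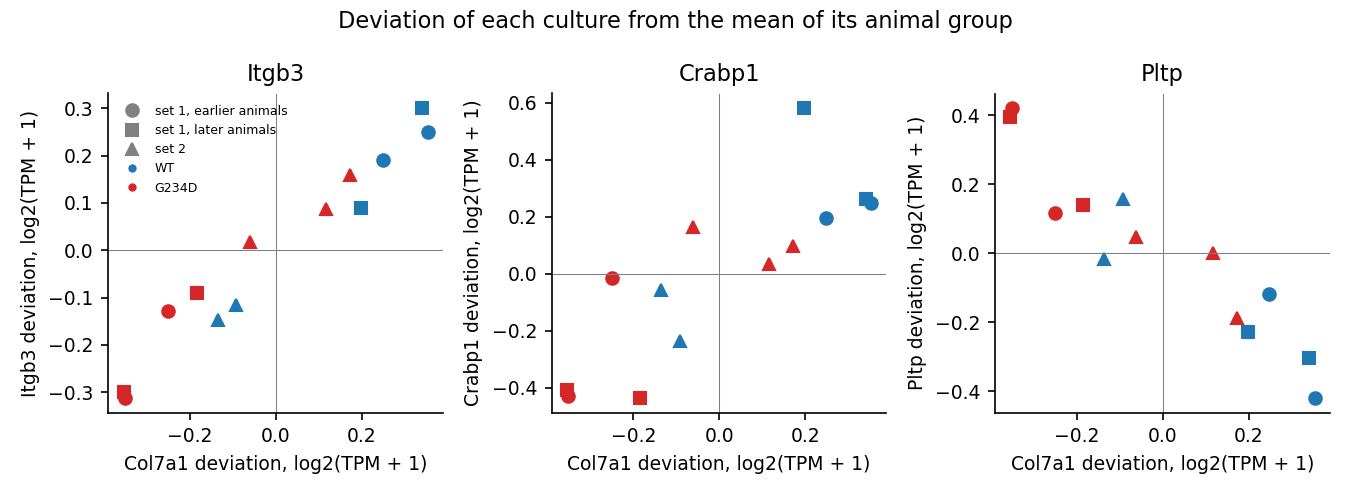
Deviation of each culture from the mean of its animal group on log2(TPM + 1), with Col7a1 on the horizontal axis and Itgb3, Crabp1 and Pltp on the vertical axes; blue is WT and red G234D, circles and squares are earlier and later animals of set 1 and triangles are set 2. Itgb3 rises with Col7a1 within both genotypes, Crabp1 mostly between them, and Pltp falls. Over all 13 cultures, with the genotype difference left in, r was 0.974 for Itgb3, 0.815 for Crabp1 and -0.940 for Pltp.

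The genes around Col7a1 on chromosome 9 were set beside it. Of the annotated genes within 100 kb on either side, 11 had values, with Tmem89 and Gm37284 too low to be tested. None was lower in G234D without overlap in set 1, as 2.19% of all genes were, so none among so few is no departure from all genes. The nearest expressed gene upstream, Uqcrc1, a subunit of respiratory complex III that ends 3963 bases away, had log2 differences of -0.11 and -0.04. Ucn2, a urocortin peptide gene starting 1135 bases downstream on the same strand, averaged 2.68 TPM, with -0.20 and 0.14 and overlapping groups. Pfkfb4, a glycolytic regulator 6903 bases downstream, had 0.03 and 0.15, and Ccdc51, a mitochondrial protein gene at the edge of the window, 0.05 and 0.35. Like Col7a1, Ccdc51 was higher in G234D without overlap in set 2, as 16.6% of all genes were. The microRNA gene Mir711 lies within Col7a1, from 108969922 to 108970003 on the forward strand, and was not analysed here.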

How the data were processed

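RNA from 13 cultures was analysed. Per the labels' protocols, total RNA was column-purified and made into directional libraries, and the submitters' processing notes name mm10. Which aligner and quantifier made the tables is not given in the sources used here. TPM values were computed by the authors and deposited per gene, per the file headers. Of 25655 identifiers, 25600 matched GENCODE M21, used for coordinates.

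TPM were transformed to log2(TPM + 1) and fitted with limma 3.58.1 (R 4.3.3; trend, robust). A gene was tested if 6 libraries (both sets), 4 (set 1) or 2 (set 2) reached 1 TPM, which 11942, 11905 and 12060 genes passed. The median SE of a log2 difference was 0.0623, 0.0805 and 0.0869. p values were Benjamini-Hochberg adjusted over all tested genes, and an adjusted p under 0.05 was a call. Scripts were tested on simulated data. Each mouse gave 1 library and no 2 libraries held identical values.

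The gene, the 15 lists and the rules were chosen with earlier results of these data known. Named are Col7a1, Fbn1, genes within 100 kb, the 3 most abundant collagens and the 5 nearest in level, called list members or those with the smallest p, defining markers, and the 10 highest and 5 lowest r (5 highest uncentred); others are said to be chosen after seeing values.

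Deviations of same-numbered WT and G234D cultures from the mean of their set and genotype correlated at 0.314, 0.236, 0.244 and 0.214 in set 1. Same-numbered cultures of set 1 also share an animal group, and differently numbered ones were not compared. These values therefore cannot show whether replicate numbers pair cultures. In set 2 the values were -0.155 and 0.0138. Alternatives were pseudocount, filter, median-of-ratios scaling, non-robust fits, blocks and leaving out libraries.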

Additional observations from a re-analysis of the deposited data

Results flagged for a closer look

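The genotype difference of Col7a1 had opposite directions in the 2 sets: -0.57 in set 1, lower in 4 of 4 G234D cultures than in any WT culture, and 0.19 in set 2, higher in 3 of 3 than in either WT culture. It was picked out because every culture of one set moved one way and every culture of the other set the opposite way. That order was met by 39 of 11942 genes (0.327%), beside 44 (0.368%) that were higher without overlap in both sets. The set by genotype term of limma, 0.76 for Col7a1 (SE 0.123), called 0 of 11942 genes, and no p is given for Col7a1, which was chosen with these values known.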

How the results depend on the processing

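The genotype difference of Col7a1 kept its direction over both sets, in set 1, in set 2 and in the earlier and later animals under the 51 alternatives run; its set by genotype and animal group differences were not rerun. Leaving out 1 library gave -0.37 to -0.23 over both sets, -0.63 to -0.52 in set 1, 0.14 to 0.26 in set 2, -0.65 to -0.55 in the earlier and -0.62 to -0.45 in the later animals, and without M1 and M2 it was -0.24 over both sets and -0.64 in set 1. With the replicate block it was -0.33 over both sets and 0.14 in set 2. Counts of called genes were less steady, and the cause was not tested. In set 1 the count of 0 became 1 with the replicate block, 1 with animal groups as a block (Col7a1 each time), 0 to 2 leaving out 1 library (Col14a1 and S100a16 without M4), and 26 without M1 and M2, a choice made after seeing the data. In set 2 the count of 1 became 0 without a filter, 0 with a filter at 10 TPM and 1 to 14 leaving out 1 G234D library. Leaving out a WT library of set 2 leaves only 1 in that group, so no count is given for it. It became 21 with the replicate block, whose numbers were not shown to pair cultures. The set by genotype count of 0 became 0 to 1 (Pcdhgc4 without M5). The 850 genes between later and earlier animals became 269 without a filter and 36 to 865 leaving out 1 library. Centring on set and genotype reversed r for Tpbg (-0.457), Uck2 (-0.281), Itm2b (0.404) and Ube2b (0.0272). The tables hold no read totals, so what depth limits could not be measured.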
